A study of Mus musculus with 18 samples.

Results

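The apical ectodermal ridge is a thickened strip of epithelium along the distal edge of the limb bud, and 10 genes known for their activity in it were followed here: the fibroblast growth factor ligands Fgf4, Fgf8, Fgf9 and Fgf17, the zinc finger transcription factors Sp6 and Sp8, and the homeodomain transcription factors Dlx2, Dlx3, Dlx5 and Dlx6. The genes were picked by symbol, and all 10 were found among the 23919 genes kept from the deposited tables. Fgf ligands secreted by the ridge keep the mesenchyme beneath it growing and help to pattern it, with Fgf8 made along the whole ridge and Fgf4, Fgf9 and Fgf17 known mainly from its posterior part. Wnt and Bmp signals within the ectoderm induce the ridge, Sp6 and Sp8 act there upstream of Fgf8, and mesenchymal Fgf10 signals back to the ectoderm through Fgfr2. Several of these genes are also known from other embryonic tissue, including Fgf8 and Fgf17 in the tail bud, Fgf4 in early muscle, and Dlx5 and Dlx6 in cartilage and bone precursors.

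RNA was sequenced from mouse embryos of the C57BL/6 strain, either wild type or knockout (KO) for Pitx1, which encodes a homeodomain factor of the hindlimb mesenchyme. The 6 groups were the wild type and the Pitx1 KO, each at 3 ages named by embryonic day (E9.5, E11.5, E12.5), with 3 libraries each and 18 in all. Tissue was the field that forms the hindlimb, with trunk tissue beside it, at E9.5, and the hindlimb itself at both later stages. The ridge was not separated from the rest of the limb, so fewer ridge cells and less RNA per ridge cell cannot be told apart. The labels do not say whether a group's libraries stem from different embryos, so p-values measure spread among these libraries, and that spread may be technical. The labels do not describe the KO allele beyond its name.

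At each stage the KO libraries all had less Pitx1 than the wild-type libraries. Its level fell to 0.41 of the wild-type level at E9.5 (edgeR quasi-likelihood test, adjusted p = 0.0231) and to 0.17 at E11.5 (adjusted p = 6.52e-05). The E9.5 call was lost with the replicate block (adjusted p = 0.262), in the fit of all 18 libraries (0.244), with limma (0.0562 and 0.0542 at the pseudocounts 1 and 0.1) and without any one of 5 of the 6 libraries (up to 0.155), while the log2 fold change stayed between -1.37 and -1.16. DESeq2 did call it at E9.5 (adjusted p = 1.22e-15). At E12.5 the fitted ratio was 0.13 (adjusted p = 0.125), and the wild-type libraries measured 114, 112 and 44.6 RPKM (fragments scaled by transcript length and library size), with replicate 3 apart from the others. Without that library the log2 fold change at E12.5 went from -2.92 to -3.24 and passed (adjusted p = 3.14e-06). With all libraries of E12.5, Pitx1 passed with DESeq2 (adjusted p = 1.22e-08) and in the edgeR fit of all 18 libraries (0.00123). It did not pass with limma (0.136 and 0.137 at the pseudocounts 1 and 0.1). Depth ranged from 14361919 to 60672151 fragments per library, and it moved with genotype: each KO library was shallower than each wild-type library at E9.5 and deeper at E11.5. Of the 24 surface ectoderm markers, all had a level above 0 in every library of each stage, with Ovol1 lowest. Markers of other tissue were present at E9.5, including Sox1 of the neural tube at 5.91 to 7.16 RPKM, against at most 0.0291 RPKM at both later stages. At E11.5 KO replicate 1 stood apart from the other KO libraries for several genes, and at E12.5 so did wild-type replicate 3. Values without these libraries are given for Pitx1, Fgf8, Fgf9, Dlx5 and Dlx6.

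**Figure D1:**
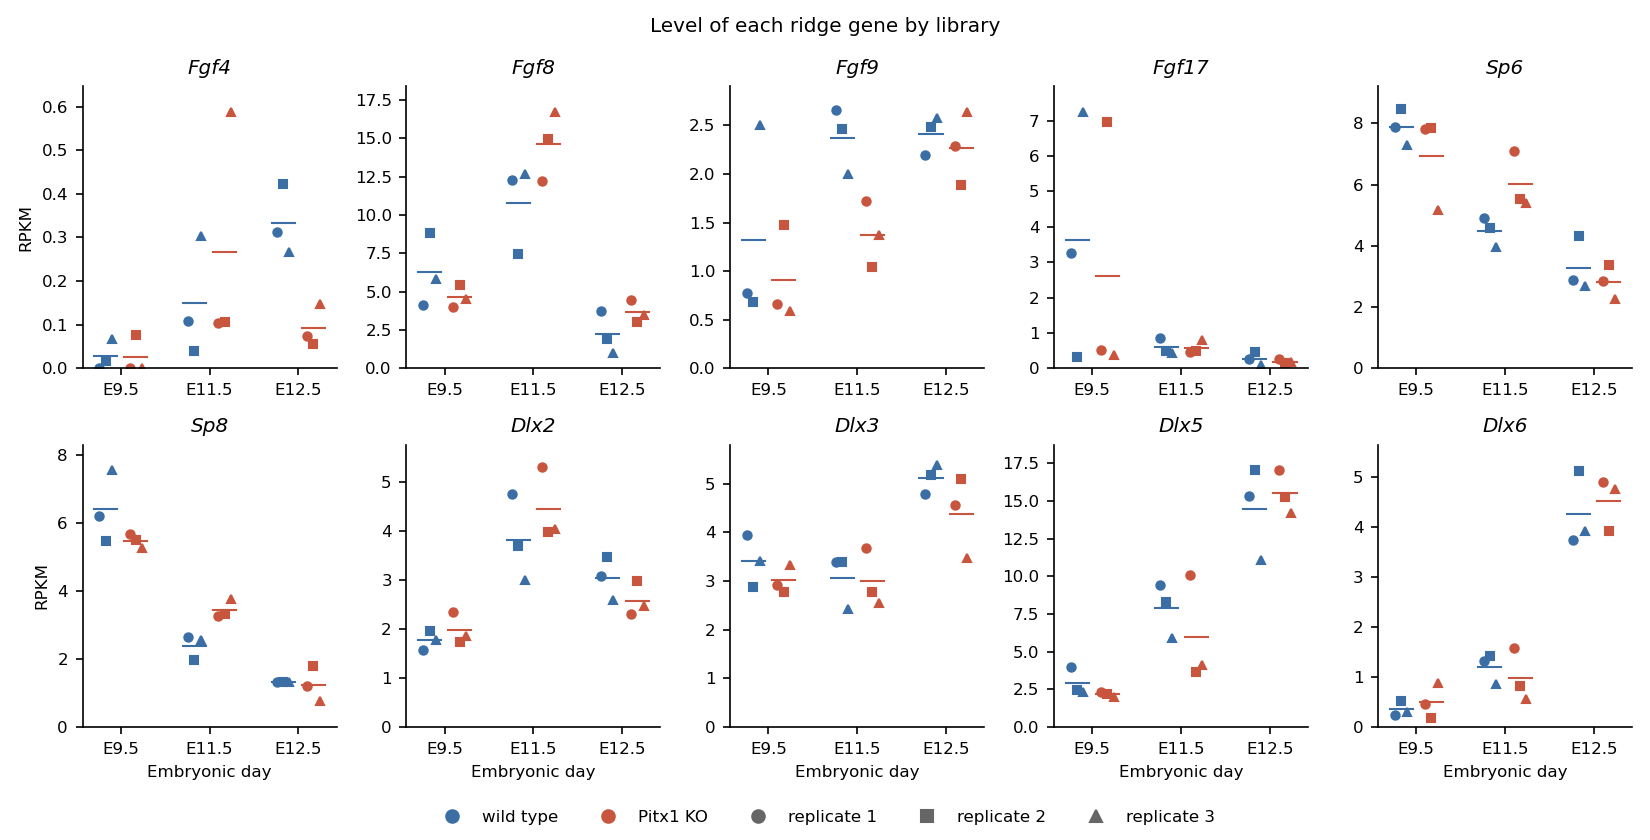
RPKM of each of the 10 genes (vertical axis, linear from 0, a separate scale for each gene) against embryonic day, for wild type (blue) and Pitx1 KO (red); symbols mark replicates 1 to 3 and bars the mean of 3 libraries. The tables of the 3 stages were normalized separately. Fgf8 was highest at E11.5, Dlx5 and Dlx6 at E12.5, and Sp6 and Sp8 at E9.5, while the genotypes overlap in most panels.

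The order of the genes by RPKM, which is a level per transcript length, differed between stages. RPKM was normalized separately in each stage's table, so the stages are set side by side here without a test. In wild type at E9.5, Sp6 (7.88 ± 0.593 RPKM, mean ± SD, n = 3), Sp8 (6.42 ± 1.06) and Fgf8 (6.25 ± 2.399) stood highest, and neighbours among them overlapped. In wild type at E11.5, Fgf8 led at 10.8 ± 2.91 RPKM and overlapped with Dlx5 at 7.87 ± 1.78. Both were above Sp6, the gene next in the order at 4.49 ± 0.477 RPKM. In wild type at E12.5, Dlx5 led at 14.5 ± 3.06 RPKM, apart from Dlx3 at 5.11 ± 0.303 and Dlx6 at 4.26 ± 0.753, which overlapped each other. Fgf8 had then dropped to rank 7 of the 10 genes, at 2.22 ± 1.40 RPKM, and overlapped with Fgf9 at 2.42 ± 0.195 and Sp8 at 1.34 ± 0.00161. The KO libraries had the same gene at rank 1 in each stage: Sp6 at 6.95 ± 1.53 RPKM, Fgf8 at 14.6 ± 2.27 and Dlx5 at 15.5 ± 1.46. Fgf4 was the lowest of the 10 genes in 5 of the 6 groups and Fgf17 in wild type at E12.5, where the pair overlapped. Fgf4 was barely detected at E9.5, with 10 fragments over all 6 libraries.

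PITX1 binds DNA through a homeodomain of the bicoid class, whose known core motif is TAATCC. Promoters are therefore shown for genes whose RPKM did not overlap between genotypes at a stage, where a sequence was at hand. Sp6 did not overlap at E11.5 either but had no sequence. RefSeq promoter entries (build GRCm38.p6) were at hand for 4 of the 10 genes: Fgf4, Fgf9, Sp8 and Dlx2. The 250 bases before the start are printed 5′ to 3′ on the gene's strand for the 3 whose RPKM did not overlap between genotypes at a stage. They lie at chr12:118846079-118846328 (plus strand, the first of 3 listed starts of Sp8), chr14:58072436-58072685 (plus strand, Fgf9) and chr7:144861136-144861385 (plus strand, Fgf4). Capitals mark a match to TAATCC, which was searched on both strands (its complement reads GGATTA).
Sp8: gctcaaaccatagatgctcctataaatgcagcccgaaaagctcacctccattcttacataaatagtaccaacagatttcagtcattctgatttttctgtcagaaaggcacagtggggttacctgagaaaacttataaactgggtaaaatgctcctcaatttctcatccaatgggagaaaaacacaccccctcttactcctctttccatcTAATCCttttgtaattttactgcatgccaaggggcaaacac
Fgf9: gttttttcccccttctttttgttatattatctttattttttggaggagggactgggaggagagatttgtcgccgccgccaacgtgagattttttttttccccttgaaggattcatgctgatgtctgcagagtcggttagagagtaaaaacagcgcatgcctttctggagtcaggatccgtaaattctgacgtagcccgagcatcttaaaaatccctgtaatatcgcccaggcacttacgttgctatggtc
Fgf4: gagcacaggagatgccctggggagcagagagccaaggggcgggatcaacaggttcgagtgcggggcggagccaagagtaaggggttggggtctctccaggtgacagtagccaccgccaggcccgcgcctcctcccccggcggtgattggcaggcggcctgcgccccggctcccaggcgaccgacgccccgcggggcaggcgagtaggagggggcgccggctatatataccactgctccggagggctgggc
The Sp8 window held 1 match, from 41 to 36 bases before the start. The windows of the other 2 starts of Sp8 and that of Dlx2, which are not printed, held 0, and the windows of Fgf9 and Fgf4 held none. Of 32851 promoter windows of the same length, 2054 (6.25%) held the motif. No printed window held the TCF/LEF core ATCAAAG (both strands, complement CTTTGAT), through which Wnt signalling acts, found in 3.21% of all windows. A match describes these letters and was not tested as a binding site.

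At E9.5, before a ridge is formed in the hindlimb, none of the genes separated the genotypes. Fgf8 measured 4.11, 8.84 and 5.80 RPKM in wild type and 3.97, 5.45 and 4.54 RPKM in KO, which overlap. Fgf17 measured 3.27, 0.331 and 7.25 RPKM in wild type and 0.530, 6.96 and 0.382 RPKM in KO. Fgf9 measured 0.780, 0.681 and 2.51 RPKM in wild type and 0.662, 1.48 and 0.592 RPKM in KO. For Fgf17 and Fgf9 the same libraries were high, replicate 3 of wild type and replicate 2 of KO, so the spread within each genotype exceeded the difference between the genotypes. Of the transcription factors, Sp8 measured 6.22, 5.48 and 7.57 RPKM in wild type and 5.70, 5.50 and 5.27 RPKM in KO. Sp6 measured 7.87, 8.47 and 7.29 RPKM in wild type and 7.81, 7.86 and 5.18 RPKM in KO. Dlx2, Dlx3 and Dlx5 lay between 1.58 and 3.997 RPKM in all 6 libraries, and Dlx6 between 0.188 and 0.870 RPKM.

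Of the 8 genes with enough fragments for a test at E9.5, 0 passed (edgeR quasi-likelihood test, p adjusted over 13804 genes, threshold 0.05), where 0.0217% of all genes tested passed. None of the 8 had an unadjusted p under 0.05, where 553 of the 13804 genes did, and DESeq2 also called 0. Fgf4 and Dlx6 were too low to test. Log2 fold changes ran from -0.53 ± 0.58 (SE) for Fgf9 to 0.17 ± 0.24 for Dlx2, 7 of the 8 were negative, and the median was -0.32 against -0.0044 over all genes. No gene of the 10 had genotypes that did not overlap, where 4.7% of genes did with KO higher and 4.59% with KO lower. The SE of Fgf17 was 1.45 around a log2 fold change of -0.46, so a difference in either direction was not detectable with these libraries.

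The libraries high in Fgf17 were also high in markers of the tail bud and presomitic mesoderm, the tissue behind the hindlimb field that adds new segments. The summed level of the 14 markers was 126, 42.9 and 329 RPKM in wild type and 79.5, 288 and 54.5 RPKM in KO. Msgn1, which marks presomitic mesoderm, measured 5.78, 0.367 and 35.9 RPKM in wild type and 1.08, 29.2 and 0.691 RPKM in KO. Fgf3, another ligand known from the tail bud, had the same 4 libraries highest, at 2.15, 0.630 and 4.02 RPKM in wild type against 1.19, 2.74 and 0.127 RPKM in KO. Fgf8 was highest in wild-type replicate 2, the library lowest in tail bud markers. Next in Fgf8 were the libraries highest in these markers, wild-type replicate 3 and KO replicate 2, at 5.80 and 5.45 RPKM. The tail bud list was not alone in this. Wild-type replicate 3 and KO replicate 2 were also highest in summed surface ectoderm markers, at 460 and 474 RPKM against 277 to 366. They were highest in hindgut and cloacal endoderm markers too, at 131 and 116 RPKM against 56.3 to 86.4. In neural markers they were lowest, at 71.6 and 75.8 RPKM against 108 to 145. The part of any of these lists in the levels of Fgf17, Fgf9 and Fgf8 was not tested. Without wild-type replicate 3 and KO replicate 2, an alternative chosen after the data were seen, the log2 fold change of Fgf17 was -2.0005, that of Fgf9 -0.23 and that of Fgf8 -0.63, and 0 of the genes passed.

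**Figure D2:**
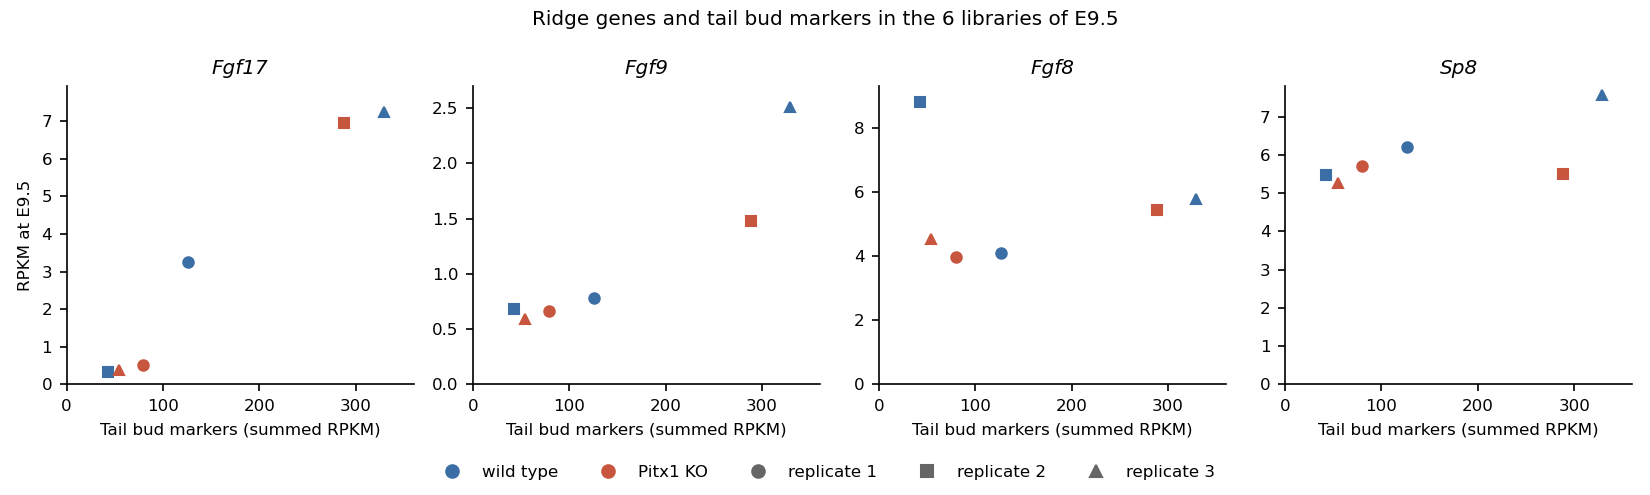
RPKM of Fgf17, Fgf9, Fgf8 and Sp8 (vertical axes) against the summed RPKM of 14 tail bud and presomitic mesoderm markers (horizontal axis) in the 6 libraries of E9.5; colour gives genotype and symbol the replicate. Fgf17 is near 7 RPKM in the libraries with 288 and 329 RPKM of markers, while Fgf8 is highest in the library with 42.9.

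At E11.5, when the ridge is active, the genes had no common direction. Sp6 and Sp8 were higher and Fgf9 lower in each KO library than in each wild-type library. Of all genes, 13.7% were higher and 14% lower in that way. Fgf8 had its highest levels of the 3 stages. Sp8, a regulator needed for a functional ridge, measured 2.64, 1.97 and 2.57 RPKM in wild type and 3.28, 3.34 and 3.76 RPKM in KO. Sp6, which acts with Sp8 in the limb ectoderm, measured 4.91, 4.58 and 3.97 RPKM in wild type and 7.10, 5.53 and 5.41 RPKM in KO. Neither range overlapped between the genotypes. Fgf9 measured 2.66, 2.46 and 1.998 RPKM in wild type and 1.72, 1.04 and 1.37 RPKM in KO, again without overlap. Fgf8 measured 12.3, 7.42 and 12.7 RPKM in wild type and 12.2, 14.9 and 16.8 RPKM in KO. Wild-type replicate 2 was the lowest Fgf8 library, and KO replicate 1 lay within the wild-type range.

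None of these differences passed the test over all genes. The log2 fold change was 0.53 ± 0.15 (SE) for Sp8 (edgeR, adjusted p = 0.0784), 0.42 ± 0.14 for Sp6 (adjusted p = 0.120) and -0.78 ± 0.21 for Fgf9 (adjusted p = 0.0737). For Fgf8 it was 0.44 ± 0.21 (adjusted p = 0.252). Leaving out any library gave values from 0.29 to 0.50 for Sp6, none past the threshold. Of the 10 genes 0 passed, where 1.96% of 14601 genes did. An unadjusted p under 0.05 was found for 3 of the 10, and for 3238 of the 14601 genes. DESeq2 called 2 of them, Fgf9 (adjusted p = 0.010) and Sp8 (adjusted p = 0.0173), in a fit that called 8.99% of all genes. Sp6 and Sp8 were 2 of 10 genes not overlapping with KO higher, where 13.7% of all genes were, and Fgf9 was 1 of 10 with KO lower, where 14% were. These shares are close to those over all genes. The median log2 fold change of the 10 genes was 0.096 against -0.013 over all genes, with 5 genes positive and 5 negative.

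The Dlx genes of E11.5 showed no common direction, and in Dlx5 and Dlx6 KO replicate 1 stood apart. Dlx5 measured 9.42, 8.28 and 5.92 RPKM in wild type and 10.1, 3.63 and 4.10 RPKM in KO. Dlx6, its neighbour in the genome, measured 1.31, 1.41 and 0.858 RPKM in wild type and 1.57, 0.811 and 0.566 RPKM in KO. In both genes KO replicate 1 was the highest of the 6 libraries and the other KO libraries were below all wild-type libraries. With all libraries the log2 fold change of Dlx5 was -0.39 ± 0.42 (edgeR, adjusted p = 0.627) and that of Dlx6 -0.27 ± 0.44 (adjusted p = 0.760). Without KO replicate 1 Dlx5 fell (log2 fold change -1.01, adjusted p = 0.0406), as did Fgf9 (-0.98, adjusted p = 0.0371), in a fit that called 4.03% of all genes, while Dlx6 gave -0.78 (adjusted p = 0.351). Dlx2, with 4.76, 3.69 and 3.004 RPKM in wild type and 5.31, 3.99 and 4.04 RPKM in KO, overlapped between genotypes. Dlx3 did so too, with 3.40, 3.38 and 2.42 RPKM in wild type and 3.68, 2.77 and 2.55 RPKM in KO. In Dlx2, Dlx3 and Sp6 as well, KO replicate 1 was the highest of the 6 libraries. KO replicate 1 also stood apart for Msx2, a target of Bmp signalling, at 27.0 RPKM against 14.5 and 14.0, and for Shh, the signal of the posterior margin, at 0.803 RPKM against 3.98 and 3.70. Fgf4 followed no genotype at E11.5: it measured 0.108, 0.0392 and 0.305 RPKM in wild type and 0.104, 0.107 and 0.587 RPKM in KO, with replicate 3 highest in each. Fgf17 measured 0.859, 0.494 and 0.436 RPKM in wild type and 0.459, 0.494 and 0.805 RPKM in KO.

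Other cell type markers moved with genotype at E11.5. The summed level of the 24 surface ectoderm markers was 309, 328 and 275 RPKM in wild type and 380, 342 and 333 RPKM in KO, without overlap. Of them 21 had a positive log2 fold change (median 0.27, against -0.013 over all genes) and 0 passed in edgeR. An unadjusted p under 0.05 was found for 9 of the 24, and for 3238 of the 14601 genes tested. Per 100 RPKM of these markers, Sp8 measured 0.856, 0.602 and 0.936 in wild type and 0.861, 0.975 and 1.13 in KO, which overlap. Sp6 measured 1.59, 1.40 and 1.45 in wild type and 1.87, 1.62 and 1.63 in KO per 100 RPKM, which do not. The summed level of the 10 muscle markers was 99.9, 126 and 43.4 RPKM in wild type and 23.8, 15.1 and 15.8 RPKM in KO, with Myf6 at 0 in libraries of both genotypes. That of the 11 cartilage and early bone markers was 190, 218 and 157 RPKM in wild type and 111, 76.7 and 89.3 RPKM in KO. In each of these lists 9 genes were tested and 9 were negative, with medians of -2.20 for muscle and -1.12 for cartilage. In edgeR 2 muscle markers fell (Pax7 and Myl1) and 4 cartilage markers fell (Sox9, Col2a1, Matn1 and Lect1). Of all genes 1.96% were called. Limb mesenchyme markers had 1 gene rising (Lhx2, by 0.52) and 1 falling (Tbx4, fell by 1.53) of 15, and of 8 tail bud markers T fell by 2.22. None of 6 neural and 5 endoderm markers passed in edgeR, nor did any at an unadjusted p under 0.05. The part of the muscle and cartilage markers, and of depth, in the values of Fgf9, Dlx5, Sp6 and Sp8 was not tested.

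**Figure D3:**
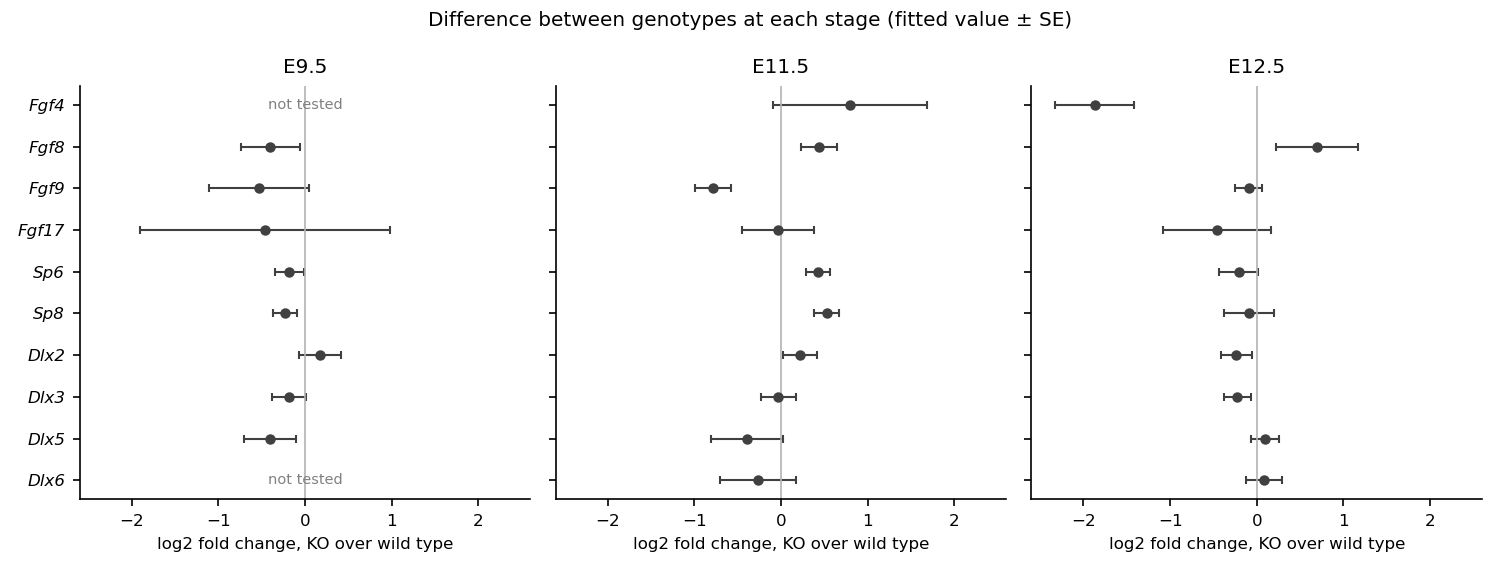
Fitted log2 fold change of Pitx1 KO over wild type (horizontal axis) for each gene (vertical axis), in 1 panel per stage; points are edgeR estimates and bars ± 1 SE from 6 libraries. No gene passed the threshold at any stage. Sp6 and Sp8 are above 0 and Fgf9 below 0 at E11.5, and Fgf4 is below 0 at E12.5.

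At E12.5 the ligand Fgf4 was lower in each KO library than in each wild-type library, and the other 9 genes overlapped between genotypes. Fgf4 measured 0.313, 0.422 and 0.267 RPKM in wild type and 0.0740, 0.0553 and 0.147 RPKM in KO. The values rest on few fragments, 23, 34 and 32 in wild type and 5, 5 and 10 in KO. Its log2 fold change was -1.87 ± 0.46 (SE; edgeR, adjusted p = 0.186), and leaving out any library gave values from -2.35 to -1.58. Fgf4 was 1 of 10 genes not overlapping with KO lower, where 10.3% of all genes were, and 0 of 10 had KO higher, where 11.4% did. Fgf8 measured 3.74, 1.93 and 0.974 RPKM in wild type and 4.47, 3.02 and 3.47 RPKM in KO. The wild-type range was wide, and replicate 3, the library low in Pitx1, was lowest. The log2 fold change of Fgf8 was 0.69 ± 0.48 (edgeR, adjusted p = 0.518) and 0.30 without that library. In it, surface ectoderm markers summed to 665 RPKM against 405 and 511 in the other wild-type libraries, and Fgf10 measured 10.7 RPKM against 5.69 and 5.11.

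Fgf9 and Sp8 overlapped between genotypes at E12.5. A change in their KO effect from E11.5 did not pass (edgeR, adjusted p = 0.433 and 0.510). Fgf9 measured 2.20, 2.48 and 2.57 RPKM in wild type and 2.28, 1.89 and 2.64 RPKM in KO. Sp8 measured 1.34 RPKM in each wild-type library and 1.20, 1.80 and 0.755 RPKM in KO, on both sides of the wild-type level. Sp6 measured 2.89, 4.31 and 2.67 RPKM in wild type and 2.85, 3.39 and 2.26 RPKM in KO. Dlx5 measured 15.3, 17.1 and 11.1 RPKM in wild type and 17.1, 15.3 and 14.2 RPKM in KO. Dlx6 measured 3.74, 5.12 and 3.91 RPKM in wild type and 4.89, 3.91 and 4.74 RPKM in KO, so the KO libraries lay within the wild-type range. Dlx2, Dlx3 and Fgf17 had log2 fold changes of -0.23 ± 0.18, -0.22 ± 0.16 and -0.46 ± 0.62 (SE). None of the 10 genes passed in edgeR or DESeq2, where edgeR called 0.0138% of 14494 genes. Pitx1 itself, at 0.13 of the wild-type level, did not pass in that edgeR fit, so a difference in the 10 genes was not excluded by it. An unadjusted p under 0.05 was found for 1 of the 10, Fgf4, and for 2185 of the 14494 genes. The median log2 fold change was -0.15, against -0.00046 over all genes. Cartilage and early bone markers summed to 331, 311 and 295.5 RPKM in wild type and 164, 218 and 222 RPKM in KO, without overlap, with 10 of 11 negative and a median log2 fold change of -1.16. Of 24 surface ectoderm markers 21 were negative (median -0.20), with sums that overlap, at 430, 505 and 480 RPKM in KO. Muscle markers summed to 391, 532 and 557 RPKM in wild type and 262, 296 and 499.6 RPKM in KO, which overlap. The part of these lists in the level of Fgf4 was not tested.

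Whether the KO effect differed between stages was tested as an interaction over 12 libraries, and these comparisons share the libraries of E11.5 with each other and with the test at that stage. From E9.5 to E11.5 the effect on Sp8 changed by a log2 value of 0.76 ± 0.20 (SE; edgeR, adjusted p = 0.141), from -0.23 to 0.53. DESeq2 called it (adjusted p = 0.0297) in a fit that called 2.49% of all genes. The change for Fgf8 was 0.84 ± 0.42 (adjusted p = 0.364) and that for Sp6 0.60 ± 0.23 (adjusted p = 0.241). Of the 10 genes 0 passed in edgeR, where 0.026% of 15372 genes did. An unadjusted p under 0.05 was found for 2 of the 10, and for 2344 of the 15372 genes. From E11.5 to E12.5 the effect on Fgf4 changed by -2.68 ± 1.12 (adjusted p = 0.451), that on Fgf9 by 0.68 ± 0.27 (adjusted p = 0.433) and that on Sp6 by -0.64 ± 0.27 (adjusted p = 0.460). Again 0 of 10 passed in edgeR or DESeq2, where edgeR called 0.00653% of 15324 genes. An unadjusted p under 0.05 was found for 3 of the 10, and for 1585 of the 15324 genes. A difference in KO effect between stages was thus not shown by edgeR for any of the 10 genes.

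The clearest changes of these genes were between E11.5 and E12.5 rather than between genotypes. In wild type, Fgf8 fell by 2.34 ± 0.40 (log2, SE; edgeR, adjusted p = 0.00157) and Sp8 fell by 0.91 ± 0.23 (adjusted p = 0.00985). Without wild-type replicate 3 of E12.5 Fgf8 fell by 1.93 and still passed. Dlx6 rose by 1.76 ± 0.35 (adjusted p = 0.00243) and Dlx3 by 0.67 ± 0.19 (adjusted p = 0.0163). The call for Dlx3 was lost without wild-type replicate 3 of E11.5 (log2 0.52, adjusted p = 0.0701). These 4 of 10 genes compare with 33.4% of 15324 genes called, with 2 rising where 17.1% rose and 2 falling where 16.3% fell, so the share is near that of all genes. Sp6 (-0.52 ± 0.19, adjusted p = 0.0543) and Dlx5 (0.82 ± 0.35, adjusted p = 0.0939) fell short of the threshold. Fgf9 gave -0.041 ± 0.19, Fgf4 1.08 ± 0.76, Fgf17 -1.25 ± 0.52 and Dlx2 -0.39 ± 0.20.

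In KO, 8 of the 10 genes changed between E11.5 and E12.5, where 41.5% of all genes did. Fgf8 fell by 2.08 ± 0.39 (log2, SE; edgeR, adjusted p = 0.00151), Fgf17 fell by 1.70 ± 0.55, Sp8 fell by 1.53 ± 0.23, Sp6 fell by 1.16 ± 0.20 and Dlx2 fell by 0.86 ± 0.20. Those are 5 genes falling, where 21.1% of all genes fell. Dlx6 rose by 2.10 ± 0.35 (adjusted p = 0.000555), Dlx5 by 1.29 ± 0.35 and Fgf9 by 0.64 ± 0.19, which are 3 genes rising, where 20.4% rose. Without KO replicate 1 of E11.5 the rise was 1.92 for Dlx5 and 2.62 for Dlx6. Dlx3 (0.46 ± 0.19, adjusted p = 0.0637) and Fgf4 (-1.60 ± 0.83, adjusted p = 0.137) did not pass. Without KO replicate 3 of E11.5, 5 genes remained past the threshold: Fgf8, Sp6, Sp8, Dlx2 and Dlx6. That fit called 4912 of 15560 genes. Of the genes called in wild type, Fgf8, Sp8 and Dlx6 were also called in KO in the same direction. More genes passed in KO than in wild type, but none of the 10 passed the interaction test above. That test called 0.00653% of all genes, so a difference between the genotypes was neither shown nor excluded.

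**Figure D4:**
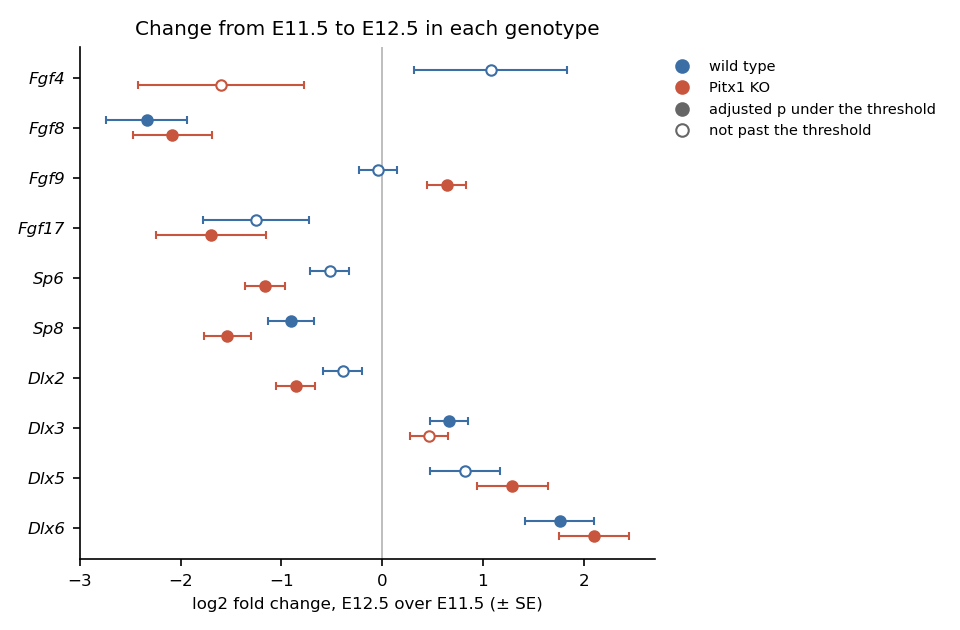
Fitted log2 fold change from E11.5 to E12.5 (horizontal axis, ± 1 SE) for each gene in wild type (blue) and Pitx1 KO (red), from 12 libraries; filled points passed the threshold of 0.05 on adjusted p. Fgf8 and Sp8 fell and Dlx6 rose in both genotypes.

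Tables of the stages were made separately and depth differed between them, so stage cannot be told apart from the processing of its table. Dlx6 rose in both genotypes and Dlx5 passed in KO only, and markers of other tissue rose as well. Of 11 cartilage and early bone markers, 7 rose and 0 fell in wild type and 10 rose and 0 fell in KO. Their median log2 fold changes were 1.28 and 1.66. Of 10 muscle markers, 8 rose and 2 fell in wild type and 8 rose and 1 fell in KO. Their medians were higher, 2.29 and 3.49. Of all genes, 17.1% rose in wild type and 20.4% in KO. Of the surface ectoderm markers, in wild type 12 of 24 rose and 1 fell, with a median of 0.43, and in KO 4 rose and 5 fell, with a median of 0.0017. Per 100 RPKM of these markers, Fgf8 measured 3.97, 2.26 and 4.61 in wild type at E11.5 and 0.923, 0.378 and 0.146 at E12.5. In KO it measured 3.22, 4.36 and 5.03 at E11.5 and 1.04, 0.597 and 0.722 at E12.5 per 100 RPKM. In both genotypes the stages did not overlap on that scale. A limit is that the markers divided by rose themselves in wild type (median 0.43), which lowers the ratio there at E12.5. The part of the cartilage and muscle markers in the values of Dlx5 and Dlx6, and of the ectoderm markers in those of Fgf8 and Sp8, was not tested.

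Receptors, targets and inhibitors of Fgf signalling were compared next. Of 17 receptors, targets and inhibitors tested at E11.5, 0 rose and 1 fell in KO: Fgfr4, a receptor known from muscle precursors, by a log2 fold change of -1.64 ± 0.30 (SE; edgeR, adjusted p = 0.0315). Its levels were 3.41, 3.06 and 1.95 RPKM in wild type and 1.27, 0.790 and 0.629 RPKM in KO. How the call of Fgfr4 fared in the alternative fits is not given here. Dusp6, a phosphatase induced by Fgf signalling that limits it, gave -0.12 ± 0.14, Etv4, a transcription factor induced by it, 0.0090 ± 0.17 and the inhibitor Spry4 -0.021 ± 0.11. Of the 17 genes 13 were negative, and the largest difference after Fgfr4 among genes with an unadjusted p under 0.05 was that of Fgfrl1, at -0.32 ± 0.082 (adjusted p = 0.0689). At E9.5 none of 18 passed, with Dusp6 at -0.52 ± 0.15, and at E12.5 none of 17 passed, with Spry4 at -0.48 ± 0.13 (adjusted p = 0.213). From E11.5 to E12.5, Dusp6 fell by 1.26 ± 0.13 in wild type and fell by 0.98 ± 0.12 in KO. Etv4 fell by 0.95 ± 0.14 and fell by 1.07 ± 0.14 in the same order, in the direction of Fgf8. Fgfr3, a receptor known from cartilage, rose by 1.14 ± 0.26 and by 1.24 ± 0.27, and Fgfr2 by 0.75 ± 0.11 and by 0.76 ± 0.11. In KO the co-receptor gene Kl rose by 3.57 ± 0.90 and Fgfr4 by 1.94 ± 0.33. Counted over the list, 3 rose and 3 fell of 18 in wild type, where 33.4% of all genes were called, and 4 rose and 5 fell in KO, where 41.5% were, so both shares are near the background.

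Among the other Fgf genes, Fgf10 encodes a mesenchymal signal. At E11.5 it measured 7.17, 7.15 and 7.06 RPKM in wild type and 8.87, 8.82 and 11.7 RPKM in KO. The genotypes did not overlap, and the log2 fold change of 0.46 ± 0.11 (SE) did not pass (edgeR, adjusted p = 0.0635). At E9.5 Fgf10 gave -0.71 ± 0.26 (adjusted p = 0.999) and at E12.5 -0.27 ± 0.29 (adjusted p = 0.678). None of the Fgf genes tested in this list passed between genotypes, of 11 at E9.5, 9 at E11.5 and 12 at E12.5. Between E11.5 and E12.5, 7 of 14 rose and 0 fell in wild type, where 17.1% of all genes rose and 16.3% fell, and 6 rose and 2 fell in KO, where 20.4% rose and 21.1% fell. Those with the largest rise in wild type were Fgf6, known from muscle, Fgf16, Fgf12 and Fgf14. Fgf6 had 2 fragments over the wild-type libraries of E11.5 and 49 over those of E12.5, and Fgf16 had 7 and 96, so their folds are imprecise. Fgf12 rose by 3.33 ± 0.42 and Fgf14 by 2.55 ± 0.80. In KO, Fgf6 went from 0 to 10 fragments and Fgf16 from 10 to 53, while Fgf12 rose by 4.23 ± 0.46 and the mesenchymal ligand Fgf7 by 2.36 ± 0.42. Fgf10 fell by 0.79 ± 0.24 in KO and Fgf5 was the other gene of this list that fell there. The change of stage did not differ between genotypes past the threshold for any Fgf gene tested.

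Of the signals that induce and maintain the ridge, Bmp7 and Wnt7a rose in KO at E11.5 in the edgeR fit of all 6 libraries. Of 33 such genes tested at E11.5, 2 rose and 1 fell, where 1.96% of all genes were called. Their median log2 fold change was 0.13 against -0.013 over all genes. Of the 24 surface ectoderm markers 21 were positive too (median 0.27), and their part in the rises of Bmp7 and Wnt7a was not tested. Bmp7, an ectodermal and mesenchymal ligand, rose by 0.45 ± 0.079 (SE; edgeR, adjusted p = 0.0257), from 20.2, 17.6 and 18.1 RPKM to 25.1, 26.4 and 24.8 RPKM. Wnt7a, the signal of the dorsal ectoderm, rose by 0.64 ± 0.13 (adjusted p = 0.0380), from 3.41, 4.08 and 3.55 RPKM to 5.78, 6.26 and 5.18 RPKM. Gas1, a membrane protein that modulates hedgehog signalling, fell by 0.30 ± 0.063 (adjusted p = 0.0432). That fit called 286 genes, against 9 without wild-type replicate 1, 14 without KO replicate 3 and 643 without wild-type replicate 3. How the calls of Bmp7, Wnt7a and Gas1 fared in the alternative fits is not given here. The Bmp antagonist Grem1, which links the mesenchyme to ridge maintenance, measured 16.4, 11.1 and 17.2 RPKM in wild type and 19.9, 27.3 and 30.4 RPKM in KO, without overlap (log2 0.79 ± 0.21, adjusted p = 0.0856). Bmp4 gave 0.37 ± 0.13, the ectodermal ligand Wnt3 0.29 ± 0.17, the epithelial factor Trp63 0.33 ± 0.11, Msx2 0.47 ± 0.29, Shh 0.49 ± 0.95 and Fgfr2, the receptor of Fgf10, -0.078 ± 0.11, none past the threshold. None of 33 passed at E9.5 and none of 32 at E12.5. From E11.5 to E12.5, Grem1 fell by 1.58 ± 0.20 in wild type and fell by 2.21 ± 0.20 in KO, Bmp4 fell by 0.56 ± 0.13 and fell by 0.93 ± 0.13, and Shh went from 629 to 5 fragments over the wild-type libraries and from 1171 to 10 over the KO libraries. Rspo2, a secreted enhancer of Wnt signalling, fell by 1.34 ± 0.31 and fell by 1.74 ± 0.31, and Arid3b, a DNA-binding protein known from ridge development, fell by 1.36 ± 0.21 and fell by 1.20 ± 0.21. In all, 9 of 33 rose and 7 fell in wild type, where 33.4% of all genes were called, and 3 rose and 9 fell in KO, where 41.5% were. Wnt3 rose by 0.78 ± 0.21 in wild type and gave 0.27 ± 0.21 in KO.

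Relatives of the Sp and Dlx genes did not change with genotype past the threshold at any stage. Sp9, a further ridge Sp gene, measured 0.768, 1.36 and 0.742 RPKM in wild type and 1.40, 0.628 and 1.09 RPKM in KO at E11.5, which overlap. At E12.5 it measured 1.74, 2.03 and 1.65 RPKM in wild type and 0.994, 1.01 and 0.444 RPKM in KO, so each KO library was lower, with a log2 fold change of -1.14 ± 0.31 (SE; edgeR, adjusted p = 0.216). Dlx1, which lies next to Dlx2, gave 0.18 ± 0.18 at E11.5 and -0.27 ± 0.19 at E12.5. The tests covered 9 of these genes at E9.5 and 11 at each later stage. From E11.5 to E12.5, 3 of 11 rose and 2 fell in wild type, where 33.4% of all genes were called, and 2 rose and 2 fell in KO, where 41.5% were. The bone factor Sp7 rose by 1.24 ± 0.22 in wild type and by 0.74 ± 0.23 in KO, Sp4 fell by 0.43 ± 0.13 in wild type, Sp3 fell by 0.23 ± 0.076 in wild type and fell by 0.21 ± 0.076 in KO, and Sp5, a Wnt target, fell by 2.06 ± 0.45 in KO. Dlx1as, an RNA antisense to Dlx1, rose by 2.31 ± 0.49 and by 1.42 ± 0.46. Dlx6os1, an RNA antisense to Dlx6, rose by 1.35 ± 0.27 from E11.5 to E12.5 in wild type (adjusted p = 0.00270) and gave 0.62 ± 0.27 in KO (adjusted p = 0.0769). The strand setting of the counting is not given in the sources used here, so reads of Dlx6 and Dlx6os1, or of Dlx1 and Dlx1as, cannot be told apart with certainty.

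Within groups, the Dlx genes and Sp6 varied together across the 12 libraries of E11.5 and E12.5, and Fgf8 varied apart from them. Deviations of log2 CPM (counts scaled by library size) from the group mean correlated best over all 12 libraries for Dlx5 and Dlx6 (Pearson r = 0.85, Spearman rho = 0.80). The next pairs by Pearson r were Sp6 with Dlx2 (r = 0.77) and Dlx2 with Dlx5 (r = 0.75). Without the 2 libraries farthest from the median of Dlx5, Dlx5 and Dlx6 gave r = 0.79. Without the 2 farthest from the median of Sp6, Sp6 gave higher values, 0.809 with Dlx3 and 0.805 with Dlx5. For Fgf8 the values ran from -0.37 with Dlx3 to 0.078 with Sp8. Fgf4 and Fgf17 were too low for this comparison. These are descriptions over 12 libraries that share groups, depth and the outlying libraries above, with no test.

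Over all 12843 genes compared, those most like Fgf8 in this measure were Lrwd1 (r = 0.97), Gpx3 (0.97), Hsd11b2 (0.96), Ccnd1 (0.96) and Ddb1 (0.95). Without the 2 libraries farthest from the median of Fgf8 these values lay between 0.83 and 0.91. Hsd11b2, an enzyme that inactivates corticosteroids, measured 55.7, 40.3 and 57.3 RPKM in wild type at E11.5 and 15.1, 11.4 and 6.05 RPKM at E12.5, so the libraries lowest in Fgf8 were lowest in it too. For Sp8 the genes were Polg (r = 0.94), Dctd (0.92), Tubgcp3 (0.88), Fxyd3 (0.86) and Gls2 (0.86), and without the 2 farthest libraries the value of Fxyd3 was 0.096 and that of Tubgcp3 0.36, so these rested on those libraries. For Dlx5 they were Zxdc (r = 0.97), Loxl1 (0.94), Nfatc4 (0.93), Lmtk3 (0.93) and Slc14a2 (0.93), between 0.80 and 0.99 without the 2 farthest. None of the 7 other ridge genes that could be compared was among the 5 genes most like Fgf8, Sp8 or Dlx5.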

How the data were processed

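Total RNA was isolated and stranded mRNA libraries were sequenced, per the labels' protocols. The submitters' processing notes name FastQC, TopHat2 and Cuffdiff and the mouse build mm9; the sources used here give no version, annotation or strand setting. Each stage had 1 deposited table with expected counts (raw fragments per gene, estimated by the authors' Cuffdiff run) and RPKM, the deposited level per kilobase and library size. Table replicates 0 to 2 were taken in order as replicates 1 to 3. Another 2 columns of per-library values in each table were not used. Of 23927 unique gene names, 2 duplicated date names and 6 genes with a failed estimate listed as 0 were left out, which kept 23919.

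Fragments were rounded to whole numbers (1.79% were not whole) and tested with edgeR 4.0.16 in R 4.3.3: TMM, filterByExpr, robust quasi-likelihood fits and tests, Benjamini-Hochberg adjustment over all genes tested, threshold 0.05. SE is the log2 fold change divided by the root of F. DESeq2 1.42.0, limma 3.58.1 on log2(RPKM + 1) and log2(RPKM + 0.1), other filters and scalings, a replicate block and leaving out each library were alternatives. The code was tested on simulated data. The 10 genes, the 11 other lists and the rule for named genes (all 10 genes, Pitx1, up to 4 called genes per list and comparison by size of change, and 13 signalling genes named whatever their change) were chosen with earlier results of these data known. Likeness used log2 CPM (prior count 2) for genes with a mean of 1 RPKM in a group. Promoter sequences are RefSeq's on GRCm38.p6, a build other than that of the counts.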

Additional observations from a re-analysis of the deposited data

How the results depend on the processing

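Of the 10 genes, the count past the threshold between genotypes was 0 at E9.5 and E12.5 in every alternative run. At E11.5 it was 0 except with DESeq2 (2, Fgf9 and Sp8) and without KO replicate 1 (2, Dlx5 and Fgf9), and for the KO effect of E11.5 minus E9.5 it was 0 except with DESeq2 (1, Sp8). Between the later stages 4 genes passed in wild type (3 to 6 over the alternatives and libraries left out). In KO 8 passed (5 to 9, the lowest without KO replicate 3 of E11.5, and 6 in the fit of all 18 libraries). Of all genes, these fits called 3414 to 5578 in wild type and 4673 to 6729 in KO, with 15324 to 18883 tested. In wild type Sp6 also passed with DESeq2, without a filter, with the replicate block and without wild-type replicate 2 of E12.5, where Fgf17 passed too, and Dlx5 with DESeq2 and the replicate block. In KO Dlx3 also passed with DESeq2, without KO replicate 1 of E11.5 and without KO replicate 3 of E12.5. Fgf9 and Fgf17 lost the call in KO in the fit of all 18 libraries (adjusted p = 0.214 and 0.265).

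Counts over all genes moved more. At E9.5, 3 genes passed, against 19 with DESeq2, 0 in the fit of all 18 libraries, 0 with the replicate block, 1 with a mean of 5 RPKM and 6 without the 2 libraries highest in tail bud markers. The 3 genes were all lower in KO, whereas limma called 2 and 3 at the pseudocounts 1 and 0.1, all higher in KO. At E11.5, 286 passed, against 1312 with DESeq2, 525 without a filter, 692 in the fit of all 18 libraries, 100 with the replicate block, and 79 and 94 with limma at pseudocounts of 1 and 0.1. At E12.5, 2 passed, against 441 with DESeq2, 5 without a filter, 23 in the fit of all 18 libraries, 386 with the replicate block, 4 and 4 with limma and 1 with a mean of 5 RPKM. For E11.5 minus E9.5, 4 passed, against 383 with DESeq2, 0 without the robust step, 15 in the fit of all 18 libraries and 1 with the replicate block. For E12.5 minus E11.5, 1 passed, against 120 with DESeq2, 2 without a filter, 0 without the robust step and 0 in the fit of all 18 libraries. Leaving out 1 library gave 0 to 2 genes at E9.5, 9 (without wild-type replicate 1) to 643 (without wild-type replicate 3) at E11.5, 1 to 15 (without wild-type replicate 3) at E12.5, 0 to 9 for E11.5 minus E9.5 and 0 to 5 for E12.5 minus E11.5. The cause was not tested.

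The following log2 fold changes, none past the threshold, turned sign when 1 library was left out. At E9.5 Fgf9 ran from -1.07 to 0.31 and Fgf17 from -2.97 to 0.50. At E11.5 Fgf4 ran from -0.50 to 1.82, Fgf17 from -0.32 to 0.33, Dlx3 from -0.20 to 0.078 and Dlx6 from -0.78 to 0.0052. At E12.5 Fgf9 ran from -0.21 to 0.028, Sp6 from -0.36 to 0.031, Sp8 from -0.45 to 0.17 and Dlx5 from -0.063 to 0.23. For E11.5 minus E9.5 Fgf4 ran from -1.17 to 5.40, Fgf9 from -1.10 to 0.29, Fgf17 from -0.54 to 2.94, Dlx2 from -0.098 to 0.25, Dlx3 from -0.020 to 0.26 and Dlx5 from -0.61 to 0.27. For E12.5 minus E11.5 Fgf8 ran from -0.16 to 0.91 and Fgf17 from -0.90 to 0.17, and for E12.5 over E11.5 in wild type Fgf9 ran from -0.15 to 0.046. For E11.5 minus E9.5, Dlx5 was 0.015 without and -0.15 with the replicate block. Libraries of the same number correlated at 0.021, -0.39 and -0.37 at E9.5, 0.044, -0.23 and 0.049 at E11.5 and 0.17, -0.027 and 0.23 at E12.5 (deviations from group means, over genes), so the numbers were not taken to pair the samples. Low counts limit Fgf4 at all stages and Dlx6 at E9.5.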
